A study of Mus musculus with 7 samples.

Results

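The 32 genes described here encode lysosomal enzymes, lysosomal membrane proteins, transcription factors of the TFEB family and proteins of autophagy. They were taken by gene name from a list drawn up by role, with earlier results of these data known and no cutoff on a measured value, and each matched 1 of the 54532 genes in the deposited count table. Kidney RNA was sequenced from C57BL/6J mice, male per the series' design text and 6 to 8 weeks old. All animals had received 20 mg/kg of cisplatin, an anticancer platinum compound toxic to kidney tubules, by tail vein. In the DXZ group (3 libraries), DXZ was given by the same route at 40 mg/kg, first 30 min ahead of cisplatin and then at 24 h intervals for 3 days. The saline group (4 libraries) is labelled saline. DXZ is written as in the labels, which do not spell it out. No kidney without cisplatin was used here, so healthy levels are not known from these data. Whether the libraries came from separate animals is not stated, so p-values measure the spread between these samples.

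Lysosomes are acidic organelles that break down material delivered by endocytosis and by autophagy, in which a double membrane closes around cytoplasm or a damaged organelle and then fuses with the lysosome. Proximal tubule cells take up large amounts of filtered protein and depend on lysosomes to degrade it. TFEB and TFE3 move to the nucleus when mTORC1 signalling at the lysosome falls, and bind E-box sites of the CLEAR type in promoters of lysosomal and autophagy genes.

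The promoters below are shown because they hold the sites through which TFEB family proteins are known to act. Promoters were taken from RefSeq (GRCm38.p6), as 250 bases before to 50 bases after each annotated start, and 27 of the 32 genes had an entry. The 8-base core TCACGTGA was present in 4 of these 27 genes (14.8%), against 304 of 27025 genes (1.12%) in the whole promoter table and 232 of 11216 genes (2.07%) tested for expression. The shorter E-box CACGTG, which lies inside that core, was present in 11 of 27 (40.7%), against 8.09% of all genes and 11.4% of tested genes. Atg7, counted among the 11, had its entry at a start 27999 bases from the start in the count table. The longer 10-base CLEAR consensus was in none of the 27. Both strands were searched. Ctsd, the cathepsin D gene and the only TCACGTGA holder that passed the expression test below, had this core 99 bases before its start (chr7:142387888-142387957, minus strand, core in capitals):
Ctsd: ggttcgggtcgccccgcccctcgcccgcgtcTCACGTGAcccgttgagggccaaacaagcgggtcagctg
Gla (alpha-galactosidase A) and Ctsa (cathepsin A), which did not pass, were the other holders with the lowest p. The Ctsa promoter whose start is 1 base from that in the count table held none of the motifs, and another Ctsa promoter held the core. Gla had the core at 228 and at 195 bases before its start (chrX:134601176-134601245, minus strand), and Ctsa had it 13 bases before a start that lies 900 bases from the start of the gene in the count table (chr2:164833713-164833772, plus strand), with a second copy after the start that is not shown:
Gla: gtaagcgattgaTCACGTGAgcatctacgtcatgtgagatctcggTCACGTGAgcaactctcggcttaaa
Ctsa: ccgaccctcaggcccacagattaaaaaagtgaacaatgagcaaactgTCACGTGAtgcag
The fourth holder, the lysosomal calcium channel gene Mcoln1 (chr8:3500429-3500498, plus strand), and Lamp1, which had the most E-boxes with 4 (chr8:13159081-13159160, plus strand), were chosen for display after their values were seen, and capitals mark every TCACGTGA or CACGTG:
Mcoln1: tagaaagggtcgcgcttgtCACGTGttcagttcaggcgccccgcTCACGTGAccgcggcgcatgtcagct
Lamp1: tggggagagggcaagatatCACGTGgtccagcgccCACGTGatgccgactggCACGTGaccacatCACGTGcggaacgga
The M-box TCATGTG, a related site of the MiT factor family, was in 3 of 27 genes (11.1%), against 4.31% of all genes. Scarb2 was among them, also shown after its values were seen, and in it the site stands on the complementary strand 32 bases before a start that lies 1176 bases from the start in the count table (chr5:92505663-92505722, minus strand, site in capitals):
Scarb2: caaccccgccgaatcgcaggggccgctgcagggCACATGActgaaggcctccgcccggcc
A match describes these letters and does not show binding. Neu1, the other gene that passed the test, held none of the motifs in its window.

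The libraries held between 16058157 and 18133736 counts, and the 32 genes took 0.973% to 1.11% of them. Proximal tubule genes were expressed in every library. Their summed level over 16 markers was 9545 to 13726 CPM (counts scaled to library size) in DXZ and 15622 to 38987 CPM in saline. Most of each sum was Kap and Pck1, which did not pass and whose groups overlapped. By edgeR's test 8 of the 16 were lower in DXZ and none higher, against 2.31% and 3.24% of all tested genes. At an unadjusted edgeR p under 0.05 there were 14 of the 16, against 25.4% of all tested genes. DXZ 1 stood apart from the other DXZ libraries. Its 10 endothelial markers summed to 744 CPM, against 184 and 124 CPM in DXZ 2 and 3, and its 17 macrophage markers to 638 CPM, against 249.8 and 208 CPM. In bulk kidney, fewer cells of a type and less RNA per cell cannot be told apart.

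Compared per length, in FPKM (fragments scaled to gene length and library depth, from the deposited table), the 32 genes spanned levels from 2.15 FPKM for Npc1 to 682 FPKM for Psap, averaged over the 7 libraries. Psap, the precursor of the saposins that help enzymes reach sphingolipids, stood at 716 ± 151 FPKM in DXZ and 658 ± 61.9 FPKM in saline (SD, n = 3 and 4). It ranked 44th by FPKM among all genes of the table. Ctsd changed places in this order: it stood above Lamp1 in DXZ (563 ± 60.8 against 435 ± 35.3 FPKM) and below Lamp1 in saline (318 ± 32.02 against 461 ± 28.6 FPKM). The ATG8 protein gene Gabarapl1, the receptor gene Sqstm1 and Ctsb followed, and their ranges overlapped one another. The transcription factor genes were near the bottom, Tfeb at 5.85 ± 1.24 FPKM in DXZ and 5.15 ± 0.703 FPKM in saline, and Tfe3 at 4.32 ± 0.198 and 3.76 ± 0.188 FPKM.

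**Figure D1:**
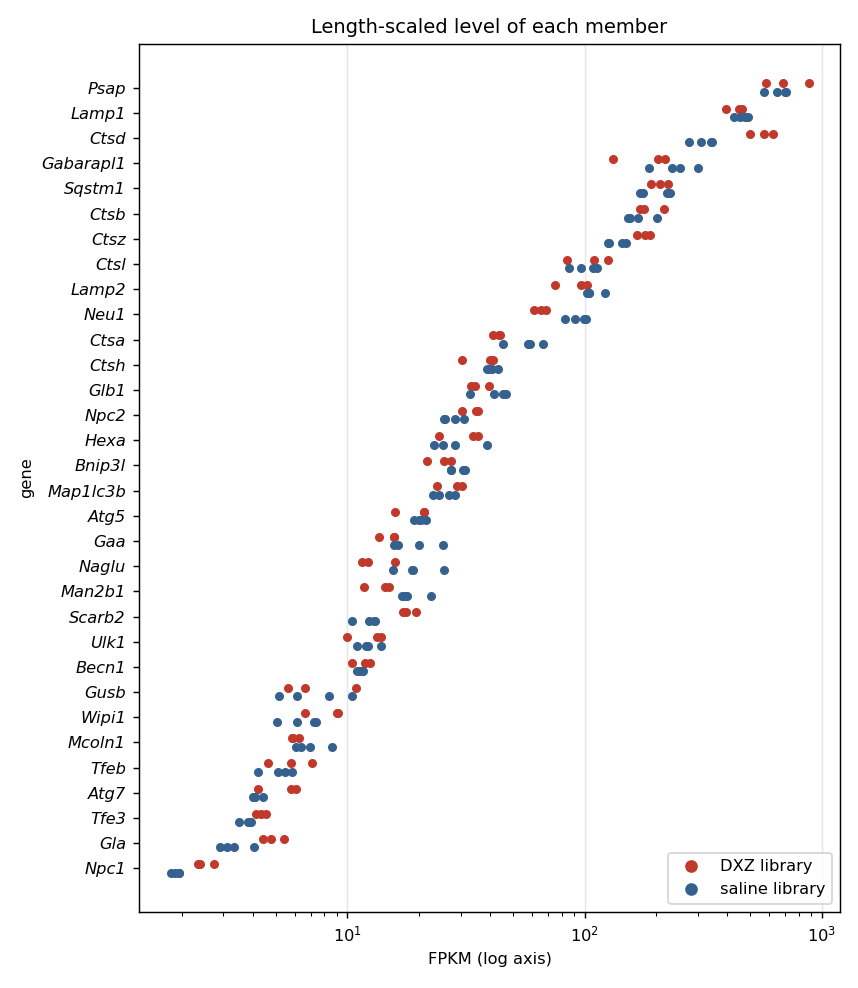
FPKM of each of the 32 genes in each library on a log axis, DXZ libraries as red points above and saline libraries as blue points below, with genes ordered by their mean over 7 libraries. Levels run from 2.15 FPKM for Npc1 to 682 FPKM for Psap, and for most genes the colors overlap.

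DXZ kidneys had more Ctsd and Scarb2 RNA and less Neu1 RNA than saline kidneys, and the other 29 genes did not pass. All 32 passed the filter on low counts. By edgeR's quasi-likelihood test with Benjamini-Hochberg adjustment over 15351 genes, 2 of the 32 rose and 1 fell, or 9.38%, where 5.56% of all tested genes passed (3.24% higher and 2.31% lower). At an unadjusted p under 0.05 there were 12 of the 32 (37.5%), against 25.4% of all tested genes. The DXZ and saline libraries did not overlap for 10 of the 32 (31.2%), 6 with DXZ above and 4 with DXZ below, against 24.1% of all tested genes (12.8% above and 11.3% below). The median log2 fold change of DXZ over saline was 0.05, against 0.01 over all tested genes, with 19 values above 0 (59.4%, against 51.3% of all tested genes) and 13 below. Most differences were small. An absolute log2 fold change of 0.5 or more was found for 5 of the 32 (15.6%), against 25.2% of all tested genes. The median SE was 0.14 for the 32 and 0.18 for all tested genes, so these shares differ in precision. The 95% interval lay within -1 and 1 for 30 of the 32, the exceptions being Ctsd and Naglu.

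**Figure D2:**
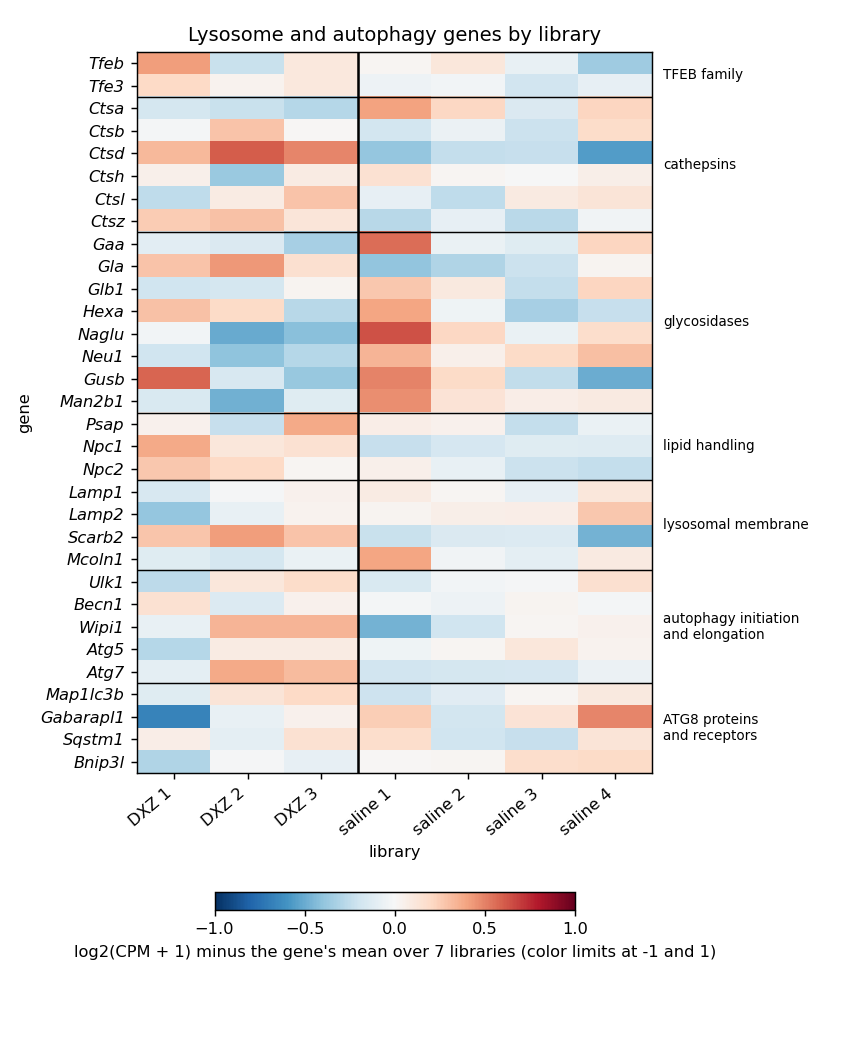
Each row is a gene and each column a library, DXZ left of the black line and saline right of it. Color gives log2(CPM + 1) minus the gene's mean over the 7 libraries. Ctsd and Scarb2 are red in all 3 DXZ libraries and blue in all 4 saline libraries, and Neu1 is the reverse.

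The calls changed with which libraries were included. Without DXZ 1, 3 genes rose and 1 fell, the addition being Atg7, where 10.1% of all tested genes passed. Without saline 3 only Ctsd and Scarb2 passed, where 2.8% of all tested genes did. Without DXZ 2, DXZ 3, saline 1, saline 2 or saline 4, none of the 32 passed by edgeR. Calls over all tested genes fell as well, to 0.00637%, 0.897%, 2.47%, 1.96% and 0.0263% in the same order. In these 5 fits 9 to 12 of the 32 had an unadjusted p under 0.05, against 12 with all libraries. Over all tested genes this number was 3074 to 3408, against 3899 with all libraries. The sizes moved little. Ctsd ranged from 0.75 to 0.90, Scarb2 from 0.50 to 0.61 and Neu1 from -0.57 to -0.48 on the log2 scale as each library was left out. With saline 1 and DXZ 1 both left out, 3 genes rose and 2 fell, where 8.65% of all tested genes passed. DESeq2 called 5 higher and 3 lower, adding Ctsz, Gla and Npc1 to those higher and Man2b1 and Naglu to those lower. It called 2011 of all genes with any count (7.4%). That set, with 27163 genes tested, takes in many low-count genes that the edgeR filter to 15351 left out. The 7.4% is thus not a like share for the 32, which all passed that filter.

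**Figure D3:**
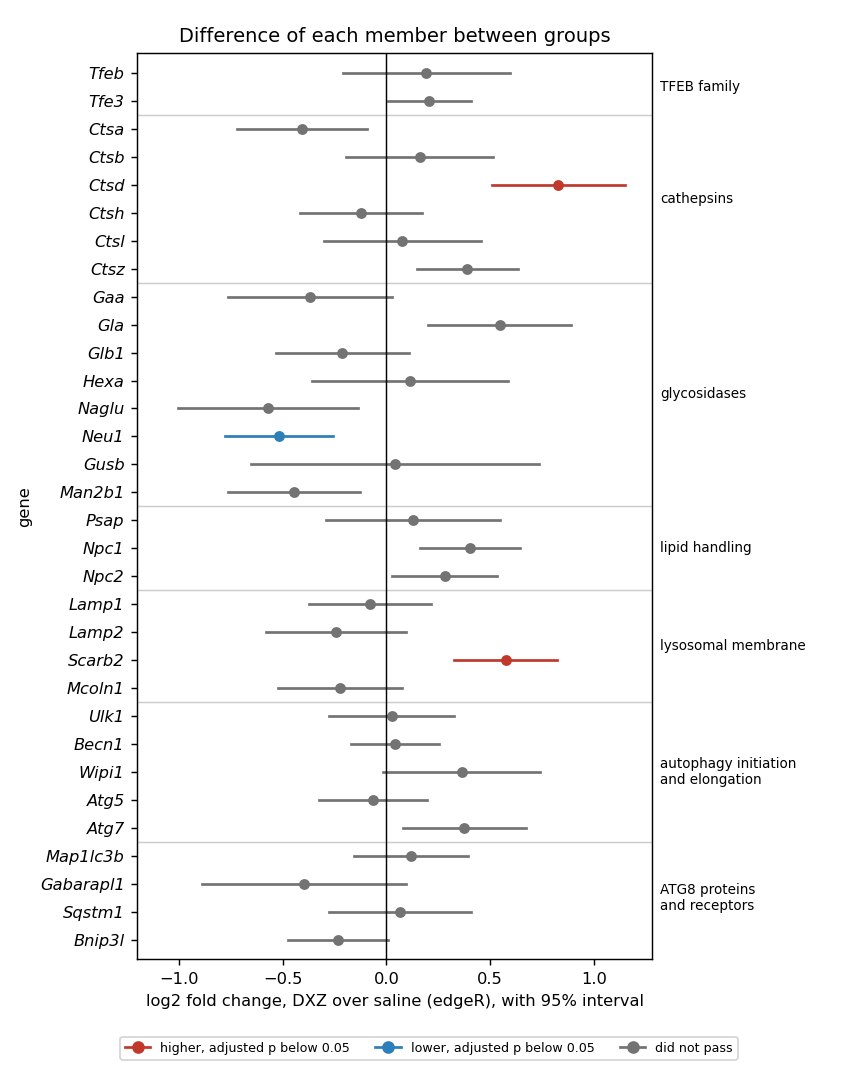
Log2 fold change of DXZ over saline for each gene with its 95% interval from the edgeR fit, grouped by role. Red marks the 2 genes that rose, blue the 1 that fell and gray the 29 that did not pass; the widest interval belongs to Gusb, at -0.65 to 0.74.

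The TFEB family genes did not pass. Tfe3 had 42.9, 38.2 and 40.1 CPM in DXZ 1, 2 and 3, against 35.8, 36.5, 32.5 and 35.1 CPM in saline 1, 2, 3 and 4. Every DXZ library lay above every saline library, but the gap was small (log2 fold change 0.21, SE 0.09, edgeR adjusted p = 0.185). Tfeb had 41.3, 26.2 and 33.01 CPM in DXZ and 31.1, 33.4, 29.1 and 23.7 CPM in saline, and the groups overlapped, with DXZ 1 highest and saline 4 lowest (log2 fold change 0.19, edgeR adjusted p = 0.535). Of the 2, 0 were called by edgeR, by DESeq2 or by limma on log2(FPKM + 1), and 1, Tfe3, had an unadjusted edgeR p under 0.05. These are RNA levels. The activity of both factors is set largely by phosphorylation and location, which were not measured.

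Among the 6 cathepsins, proteases of the lysosomal lumen, Ctsd rose and 5 did not pass. Ctsd encodes the main aspartic protease of the lysosome (chromosome 7, 142375911 to 142388038, minus strand, taken as GRCm38). It had 1201, 1455 and 1345 CPM in DXZ 1, 2 and 3, against 732, 811, 815 and 649 CPM in saline 1, 2, 3 and 4. The lowest DXZ library lay well above the highest saline library, and the means were 1334 ± 127 and 752 ± 78.3 CPM (SD, n = 3 and 4; log2 fold change 0.83, SE 0.14, edgeR adjusted p = 0.0240). Of its annotated exon bases, 34.4% are shared with Gm49369 on the same strand, which was listed at 0 counts in all 7 libraries, so how shared reads were assigned bears on the level of Ctsd. Ctsz, a carboxypeptidase, had 264, 272 and 240.4 CPM in DXZ and 182, 209.6, 183 and 216 CPM in saline, again without overlap, and did not pass (log2 fold change 0.39, edgeR adjusted p = 0.0684). The cysteine protease genes Ctsb and Ctsl did not pass and their intervals spanned 0. Ctsb had 1063, 1307 and 1084 CPM in DXZ and 945, 1029.6, 925 and 1223 CPM in saline (log2 fold change 0.16, 95% interval -0.19 to 0.51). Ctsl had 561, 707 and 815 CPM in DXZ and 631, 560.0, 712 and 729.9 CPM in saline, with the groups interleaved (log2 fold change 0.08, 95% interval -0.30 to 0.45), and its sign turned to -0.06 without DXZ 3. Ctsh, an aminopeptidase, had a log2 fold change of -0.12. Summed over the 6 genes, cathepsin RNA came to 3485, 4081 and 3867 CPM in DXZ, against 3003, 3064, 3027 and 3278 CPM in saline, most of the gap being that of Ctsd.

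The sixth, Ctsa, belongs with Neu1 and Glb1, since cathepsin A, the sialidase neuraminidase 1 and beta-galactosidase form a complex in the lysosome in which cathepsin A stabilizes both partners. All 3 genes had negative log2 fold changes and Neu1 fell. Neu1, which trims sialic acid from glycoproteins (chromosome 17, 34931253 to 34935953, plus strand), had 262, 227 and 247 CPM in DXZ, against 379.5, 311, 343 and 370.4 CPM in saline. Its groups did not overlap, with means of 245 ± 17.3 and 351 ± 30.9 CPM (SD, n = 3 and 4; log2 fold change -0.52, SE 0.11, edgeR adjusted p = 0.0435). Ctsa had 211, 204 and 196 CPM in DXZ and 316, 274, 215 and 276 CPM in saline. Its groups did not overlap either, saline 3 lying close to the DXZ libraries, and it did not pass (log2 fold change -0.41, SE 0.14, edgeR adjusted p = 0.111). Glb1 had 102, 104 and 119.9 CPM in DXZ and 142, 126, 99.1 and 136 CPM in saline, which overlapped (log2 fold change -0.21, edgeR adjusted p = 0.377).

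The 8 glycosidases, which remove sugars from glycoproteins, glycolipids and glycosaminoglycans, had a median log2 fold change of -0.29, and 1 of them, Neu1, passed. Values below 0 were also found for Naglu, which degrades heparan sulfate (-0.57, edgeR adjusted p = 0.109), Man2b1, the lysosomal alpha-mannosidase (-0.45, 0.0952), and Gaa, which degrades glycogen (-0.37, 0.227). Man2b1 had 118, 94.03 and 120.3 CPM in DXZ and 181, 144, 137 and 139.8 CPM in saline, without overlap and with saline 1 highest. Naglu had 43.1, 30.6 and 32.7 CPM in DXZ and 68.6, 50.7, 41.8 and 49.5 CPM in saline, where DXZ 1 lay above saline 3. Gla went the other way, at 15.8, 17.7 and 14.5 CPM in DXZ and 9.52, 10.2, 10.9 and 13.1 CPM in saline, without overlap (log2 fold change 0.55, SE 0.15, edgeR adjusted p = 0.0696). Its enzyme, which is deficient in Fabry disease, clears the glycolipid globotriaosylceramide. Hexa, whose enzyme acts on gangliosides (0.11), and Gusb, beta-glucuronidase (0.04), were near 0 and their sign turned without DXZ 1 (-0.0008 and -0.31). The sign of Gusb also turned without saline 3 and without saline 4. The summed glycosidase level was 740.3, 645 and 674 CPM in DXZ and 1029, 817, 783 and 879 CPM in saline. The summed proximal tubule marker level was below every saline library in all 3 DXZ libraries, and its part in this difference was not tested.

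Lipid handling genes had values above 0 and did not pass. Npc1, the membrane protein that exports cholesterol from lysosomes, had 30.2, 24.97 and 25.7 CPM in DXZ and 19.4, 20.3, 21.1 and 20.9 CPM in saline. All DXZ libraries lay above all saline libraries (log2 fold change 0.40, SE 0.10, edgeR adjusted p = 0.0625). Its soluble partner Npc2 had 198, 188 and 166 CPM in DXZ and 170.0, 156, 141 and 139 CPM in saline, where DXZ 3 lay below saline 1 (log2 fold change 0.28, edgeR adjusted p = 0.160). Psap had a log2 fold change of 0.13 (95% interval -0.29 to 0.55), which turned to -0.05 without DXZ 3. Of the 3, 0 passed by edgeR or by limma on log2(FPKM + 1), 1 passed by DESeq2, and 2 had an unadjusted edgeR p under 0.05.

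Of 4 lysosomal membrane genes, Scarb2 rose. It encodes LIMP-2, an abundant glycoprotein of the lysosomal membrane (chromosome 5, 92441314 to 92506833, minus strand). Scarb2 had 111, 122 and 111 CPM in DXZ, against 77.9, 82.3, 82.9 and 65.4 CPM in saline, and the groups were well separated, with means of 115 ± 6.58 and 77.1 ± 8.12 CPM (SD, n = 3 and 4; log2 fold change 0.57, SE 0.11, edgeR adjusted p = 0.0305). The most abundant membrane proteins of the lysosome are LAMP1 and LAMP2. Lamp1 had 1082, 1196 and 1243 CPM in DXZ and 1278, 1224, 1144 and 1311 CPM in saline, with overlap (log2 fold change -0.08, 95% interval -0.37 to 0.21). Lamp2 had a log2 fold change of -0.24 (95% interval -0.58 to 0.10). Mcoln1, whose channel releases lysosomal calcium and thereby acts on TFEB, had 45.6, 43.8 and 47.3 CPM in DXZ and 65.6, 48.5, 46.3 and 52.7 CPM in saline. The DXZ values were tightly grouped and saline 1 was highest (log2 fold change -0.22, edgeR adjusted p = 0.320).

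**Figure D4:**
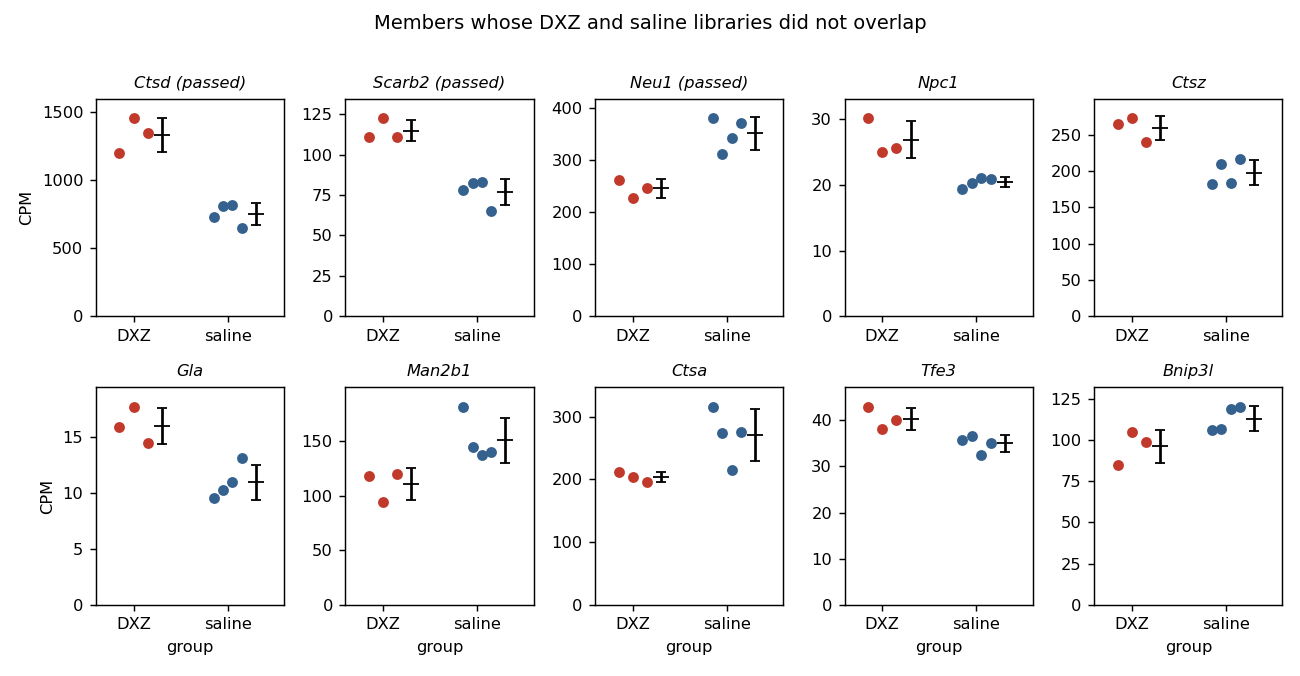
CPM in each library for the 10 genes whose groups did not overlap, DXZ left and saline right in each panel, with the mean and SD in black and each axis starting at 0. Ctsd, Scarb2 and Neu1 passed the test, and the other 7 did not.

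None of the 5 genes of autophagosome formation passed by edgeR, DESeq2 or limma on log2(FPKM + 1), and 1 had an unadjusted edgeR p under 0.05. Atg7, the E1-like enzyme that activates ATG8 proteins and ATG12, had 29.9, 42.2 and 40.3 CPM in DXZ and 27.98, 28.3, 28.5 and 30.8 CPM in saline. DXZ 2 and 3 lay above all saline libraries and DXZ 1 lay among them (log2 fold change 0.38, SE 0.13, edgeR adjusted p = 0.118). Without DXZ 1 its log2 fold change was 0.52 and it passed (edgeR adjusted p = 0.0250). Wipi1, which binds phosphatidylinositol 3-phosphate on the forming membrane, had 29.9, 40.1 and 39.97 CPM in DXZ and 22.4, 27.2, 31.9 and 32.5 CPM in saline, with DXZ 1 again the lowest of its group (log2 fold change 0.36, edgeR adjusted p = 0.212). The initiating kinase gene Ulk1 (0.03, 95% interval -0.27 to 0.33), Becn1, a subunit of the phosphatidylinositol 3-kinase complex (0.04, -0.17 to 0.25), and Atg5, part of the conjugation machinery (-0.06, -0.32 to 0.19), had intervals close around 0, and their signs changed when single libraries were left out, Ulk1 without DXZ 2, DXZ 3 or saline 1 and the others without DXZ 1. Becn1 shares 43.9% of its annotated exon bases with Cntd1 on the other strand. Cntd1 averaged 6.43 counts a library and Becn1 1384. How shared reads were assigned is not known and bears on the level of Becn1.

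The ATG8 proteins are attached to the autophagosome membrane and bind the receptors that bring in cargo. None of the 4 genes of this group passed by edgeR, DESeq2 or limma on log2(FPKM + 1), and 0 had an unadjusted edgeR p under 0.05. Map1lc3b, which encodes LC3B, had 183, 218 and 229 CPM in DXZ and 173, 185, 202 and 214 CPM in saline (log2 fold change 0.12, 95% interval -0.16 to 0.39). Sqstm1, the gene of the receptor p62, had 713, 637 and 759 CPM in DXZ and 770.3, 594, 579.5 and 744 CPM in saline (log2 fold change 0.07, 95% interval -0.28 to 0.41). Both sets of values were interleaved between the groups. Gabarapl1 had 271, 409 and 444 CPM in DXZ and 511, 380.1, 474 and 606 CPM in saline, and DXZ 1 was the lowest of all 7 (log2 fold change -0.40, 95% interval -0.89 to 0.10). Bnip3l, the mitophagy receptor NIX, had 85.2, 105 and 99.2 CPM in DXZ and 106, 107, 119 and 120.2 CPM in saline. Its groups did not overlap, but DXZ 2 lay just below saline 1 (log2 fold change -0.23, edgeR adjusted p = 0.212). RNA levels do not measure autophagic flux, which was not assayed.

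The 3 DXZ libraries differed among themselves. DXZ 1 was the lowest of the 3 for 14 of the 32 genes and the highest for 11. It was lowest for Ulk1, Wipi1, Atg5, Atg7, Map1lc3b, Gabarapl1 and Bnip3l, and for Ctsb, Ctsd, Ctsl, Glb1, Lamp1, Lamp2 and Scarb2. It was highest for Tfeb, Tfe3, Ctsa, Gaa, Hexa, Naglu, Neu1, Gusb, Npc1, Npc2 and Becn1. Gusb had 50.7, 29.9 and 25.6 CPM in DXZ 1, 2 and 3, against 47.8, 38.5, 28.04 and 23.4 CPM in saline. Its order over the DXZ libraries was that of the macrophage marker sums (638, 249.8 and 208 CPM in DXZ, against 386, 434, 275 and 283 CPM in saline). This order was not particular to Gusb, since Ctsa, Gaa, Hexa and Npc2 had it too. The endothelial, fibroblast and mural, neutrophil, T and B cell and podocyte sums had the same order over the DXZ libraries. In saline, Gusb was highest in saline 1 and the macrophage sum in saline 2. The part of any of these cell types in the levels of the 32 genes was not tested. Saline 1, which had the highest proximal tubule sum at 38987 CPM, was the highest of all 7 libraries for 10 of the 32 genes, and saline 2 for none.

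Other genes of the same pathways were read from 10 lists chosen by role, with earlier results of these data known. Of 215 tested, 7 rose and 5 fell (5.58%, against 5.56% of all tested genes), and 25.1% did not overlap between groups (24.1% of all). Without DXZ 1, 10 rose and 10 fell, but without any other single library at most 2 rose and 1 fell, and 0 passed without DXZ 2 or saline 4. Over all tested genes, 10.1% passed without DXZ 1, 0.00637% without DXZ 2 and 0.0263% without saline 4. Among 39 other lysosomal hydrolases, 0 rose and 1 fell, with a median log2 fold change of -0.14. Of 29 other lysosomal membrane genes 1 rose and 1 fell. Cd68, a heavily glycosylated lysosomal protein abundant in macrophages, had 40.6, 56.96 and 32.1 CPM in DXZ and 7.97, 16.9, 12.7 and 8.35 CPM in saline (log2 fold change 1.91, edgeR adjusted p = 0.0215), and Slc36a1, a lysosomal amino acid transporter, had 31.5, 24.4 and 26.98 CPM in DXZ and 79.7, 55.4, 47.6 and 53.7 CPM in saline (log2 fold change -1.10, edgeR adjusted p = 0.0261). Cd68 was highest in DXZ 2, where the sum over all 17 macrophage markers, Cd68 included, was below every saline library. Cd14 was the only other one of the 17 that rose, and none fell. It too was highest in DXZ 2, at 53.6, 67.1 and 65.7 CPM in DXZ and 24.9, 34.2, 38.6 and 35.6 CPM in saline. The part of macrophages in the level of Cd68 was not tested.

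The proton pump and the sorting route each had a called gene. Of 21 V-ATPase subunit genes 1 rose, Atp6v0a1, a membrane subunit that directs the pump (log2 fold change 0.68, edgeR adjusted p = 0.0355). The median of the 21 was -0.03. Of 11 genes for the mannose 6-phosphate tag and its sorting, Igf2r, the large receptor for tagged enzymes, rose to 188 ± 21.2 CPM in DXZ, against 125 ± 17.3 CPM in saline (SD, n = 3 and 4; log2 fold change 0.59, edgeR adjusted p = 0.0454). In the same list Ap1g1, a subunit of the clathrin adaptor AP-1, fell (log2 fold change -0.44, edgeR adjusted p = 0.0494), and the small receptor gene M6pr was at 0.12 and did not pass. Of 18 autophagy receptor and mitophagy genes 0 rose and 1 fell, Wdfy3, a scaffold for clearing aggregates (log2 fold change -0.64, edgeR adjusted p = 0.0301).

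Among the other lists, all drawn up with earlier results of these data known, genes of the response to lysosome damage held the most calls. Their share describes the list and is not a test of it. Of 15 tested, 4 rose and 1 fell (33.3%, against 5.56% of all tested genes), 9 had every DXZ library above every saline library (against 12.8% of all tested genes), and the median log2 fold change was 0.33. Lgals3, whose product galectin-3 binds sugars exposed inside ruptured lysosomes and which also marks injured tubules, had 264, 272 and 224 CPM in DXZ and 119.9, 163, 161 and 118 CPM in saline (log2 fold change 0.85, edgeR adjusted p = 0.0292). Lgals1, encoding galectin-1, had 318, 265 and 148 CPM in DXZ and 94.02, 148, 105 and 91.03 CPM in saline (log2 fold change 1.15, edgeR adjusted p = 0.0486). Chmp4b and Chmp2a encode ESCRT-III subunits, which close holes in membranes and serve many other membrane cuts in the cell. Chmp4b had 216, 222 and 235 CPM in DXZ and 143, 169, 174 and 151 CPM in saline, with no overlap (log2 fold change 0.49, edgeR adjusted p = 0.0388). Chmp2a had 164, 192 and 184 CPM in DXZ and 125, 134, 141 and 132 CPM in saline (log2 fold change 0.44, edgeR adjusted p = 0.0434). Lrrk2, a kinase recruited to stressed lysosomes, fell to 52.6, 33.02 and 30.2 CPM in DXZ, against 137, 99.5, 66.04 and 71.4 CPM in saline (log2 fold change -1.27, edgeR adjusted p = 0.0498). Of 12 tubule injury markers 4 rose and 8 did not pass, 11 had values above 0, and the median log2 fold change was 1.33. For 6 of the 12 every DXZ library lay above every saline library (against 12.8% of all tested genes). Their sums overlapped, at 22317 to 36727 CPM in DXZ and 8393 to 23875 CPM in saline. Most of each sum was Spp1, which did not pass and whose groups overlapped. The part of the injury markers in these differences was not tested. Of the 15 lysosome damage genes, 0 to 5 passed by edgeR as single libraries were left out. None passed without DXZ 2, saline 1 or saline 4, and 1 passed without DXZ 3, saline 2 or saline 3. Over all tested genes, 0.00637% to 10.1% passed in these fits.

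The remaining lists held no call by edgeR. Of 26 genes for MiT factors and mTORC1 control, 4 had an unadjusted edgeR p under 0.05, DESeq2 called 1 and limma on log2(FPKM + 1) called 0. Of 21 genes for autophagy initiation and nucleation the counts were 6, 2 and 0. Of 12 genes of the ATG8 family and its conjugation they were 1, 0 and 0, and of 23 genes for fusion and endolysosomal trafficking they were 5, 0 and 0. The medians of these 4 lists lay between -0.11 and -0.02. Over all tested genes, 25.4% had an unadjusted edgeR p under 0.05. Filtered limma on log2(FPKM + 1) called 7.05% of its genes, and DESeq2 called 7.4% of a set that takes in many low-count genes.

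**Figure D5:**
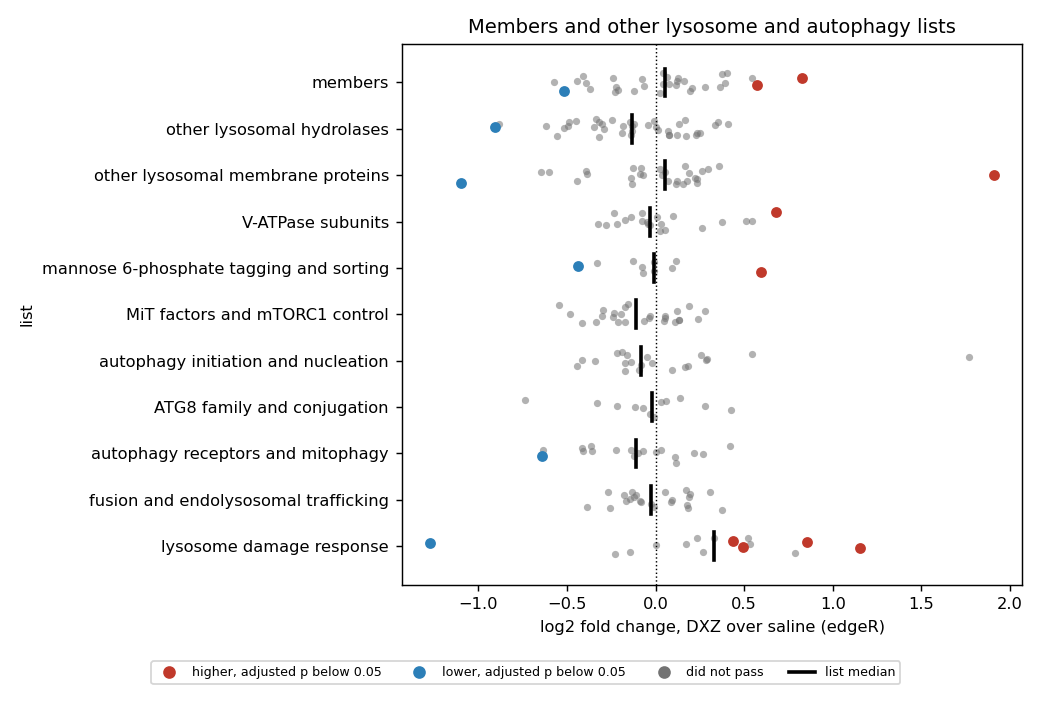
Log2 fold change of DXZ over saline for the 32 genes (top row, named members) and for each tested gene of 10 other lysosome and autophagy lists. Red and blue points passed the test, gray points did not, and black bars are list medians, the highest being 0.33 for lysosome damage response.

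The expression values were also set beside the promoter sites shown above, as a description. The 11 genes with a CACGTG had log2 fold changes from -0.57 to 0.83 with a median of -0.08, and 1 of them rose. The 16 genes with a promoter entry and no CACGTG ranged from -0.52 to 0.57 with a median of 0.12, and 1 rose and 1 fell. The ranges overlapped over most of their length. Among the 4 TCACGTGA holders, Ctsd rose, Gla was at 0.55, Mcoln1 at -0.22 and Ctsa at -0.41. Genes with this core in their window thus lay on both sides of 0.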

How the data were processed

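The authors deposited 2 tables, one of raw read counts for each gene and library, and one of FPKM; per the file headers, both carry gene names, lengths and coordinates. The FPKM values deposited are the counts over the length of the gene and a library constant (within 0.1% for 100% of genes), so they are not an independent measurement and were used for levels between genes. HISAT2, StringTie and mm9 are named, without versions, in the submitters' processing notes; the counting program, its strand setting and its handling of reads with several matches were not given in the sources used. Of 54409 genes shared with GENCODE M21 (GRCm38), 98.3% had the same start and end, and coordinates are taken as GRCm38.

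The count test used edgeR 4.0.16 under R 4.3.3: filterByExpr, TMM scaling, a quasi-likelihood fit of DXZ over saline on 7 libraries without covariates, and Benjamini-Hochberg adjustment over 15351 genes, called at an adjusted p below 0.05. The test was tried on simulated data first. CPM use the TMM-scaled library size, and an SE was taken as the absolute log2 fold change over the root of F. limma 3.58.1 and DESeq2 1.42.0 were alternatives, and each library was left out in turn. No library was a copy of another of its group: chi-square over its degrees of freedom was 15.1 to 99.1 for pairs of a group, where sampling noise alone gives 1. The members, lists and tests were chosen with earlier results of these data known. Full values are given for genes that passed, for genes whose groups did not overlap and for 10 genes fixed by name (Tfeb, Tfe3, Lamp1, Ctsd, Ctsb, Ctsl, Sqstm1, Map1lc3b, Gabarapl1 and Mcoln1), and of each other list up to 4 called genes a direction are named, except 1 hydrolase not reported here; other genes named are outside this rule. Markers of 10 cell types or states were summed per library; those used are given beside the results they move with.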

Additional observations from a re-analysis of the deposited data

Results flagged for a closer look

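In 2 of the 32 genes a single saline library lay far from the other 3 by Dixon's test of the gap against the range, at 0.841 for Man2b1 and 0.867 for Lamp2; chance gives about 1 such gene in 20. Man2b1 had 181 CPM in saline 1, against 137 to 144 CPM in the other saline libraries and 118, 94.03 and 120.3 CPM in DXZ. Without saline 1 its log2 fold change was -0.35 and with all libraries -0.45, and it passed in neither. Lamp2 had 1164 CPM in saline 4, against 983 to 1007 CPM in the other saline libraries and 737, 916 and 986 CPM in DXZ, and its log2 fold change was -0.24 with all libraries and -0.19 without saline 4. Groups of 3 were not examined in this way.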

How the results depend on the processing

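When the log2 fold change of each of the 32 genes was set against its value under each of 16 other settings, 465 values kept direction and side of the threshold, 23 lost the call, 8 gained one and 16 changed sign. Ctsd, Scarb2 and Neu1 kept their sign under all 16. The 2 higher and 1 lower calls were also found with median-of-ratios scaling, a filter of 1 CPM in 3 libraries and limma on filtered FPKM, where a pseudocount of 0.1 left 4 of the other listed genes higher; without a count filter 0 of the 32 were lower. DESeq2 called 5 higher and 3 lower (other lists 13 lower; all genes 1105 and 906). Unfiltered limma on log2(FPKM + 1) called 0 and 0 (other lists 0 and 0, all genes 90 and 55). In that fit 12 of the 32 had an unadjusted p under 0.05, against 4593 of 27180 genes, low-count genes included. Leaving out saline 1 together with DXZ 1 gave 2 lower (other lists 8 lower; all genes 700.0 lower), Gusb was at -0.11, Becn1 at -0.029 and Atg5 at 0.025.

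Leaving out each library in turn gave 0 to 3 higher and 0 to 1 lower, a median log2 fold change of -0.026 (without DXZ 3) to 0.066, 0 to 10 of the other listed genes in each direction, and 0 to 792 higher and 1 to 782 lower over all genes. The genes that changed sign ranged from -0.31 to 0.24 (Gusb), -0.0008 to 0.29 (Hexa), -0.026 to 0.10 (Becn1), -0.13 to 0.052 (Atg5), -0.063 to 0.15 (Ulk1), -0.057 to 0.21 (Ctsl), -0.052 to 0.25 (Psap) and -0.0001 to 0.13 (Sqstm1).

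Replicate numbers are shared between groups, but the correlations of deviations for numbers 1, 2 and 3 were 0.27, -0.10 and 0.24, so they were not taken to pair the samples. With the number as a replicate block, 0 of the 32 were higher and 0 lower (other lists 1 and 1, all genes 46 and 39), and Gusb was at -0.13. In that fit 11 of the 32 had an unadjusted edgeR p under 0.05, against 3231 of 15351 tested genes. The cause of these changes was not tested. With 3 and 4 libraries the median SE of the 32 genes was 0.14 on the log2 scale, which limits what differences could be detected.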

Other observations

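Several genes of the other lists had large or separated values without passing, and are named here after their values were seen. Lgmn, which encodes legumain, a cysteine protease of proximal tubule lysosomes, had 883, 925 and 1039 CPM in DXZ and 1578, 1197, 1199 and 1448 CPM in saline, without overlap (log2 fold change -0.51, edgeR adjusted p = 0.0882). Atg9b, a lipid scramblase of autophagosome formation, had 4.57, 12.3 and 4.66 CPM in DXZ and 0.9746, 2.68, 2.50 and 2.23 CPM in saline (log2 fold change 1.77, edgeR adjusted p = 0.0624), while its relative Atg9a had 19.3, 19.4 and 24.03 CPM in DXZ and 28.03, 27.4, 31.3 and 27.2 CPM in saline (log2 fold change -0.45, edgeR adjusted p = 0.0646). Both Atg9 genes had separated groups, in opposite directions. Nprl2 and Nprl3, subunits of the GATOR1 complex that restrains mTORC1, were at 18.3 ± 1.94 and 18.5 ± 0.552 CPM in DXZ, against 26.7 ± 3.58 and 23.4 ± 3.12 CPM in saline (SD, n = 3 and 4), again without overlap, with edgeR adjusted p = 0.0615 for Nprl2 and 0.143 for Nprl3. The atypical V-ATPase subunit gene of intercalated cells Atp6v1g3 had 56.6, 79.2 and 63.9 CPM in DXZ and 45.00, 37.3, 54.1 and 50.1 CPM in saline (log2 fold change 0.51, edgeR adjusted p = 0.0913).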
